A study of Mus musculus with 8 samples.

Results

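Immediate early genes are described here in 4 mouse bone marrow B-cell libraries. The group holds 10 genes, which were picked by name from the 22272 gene symbols of the mRNA table: the AP-1 subunits Fos, Fosb, Jun, Junb and Jund, the transcription factors Egr1 and Nr4a1, the feedback regulators Dusp1 and Zfp36, and Ier2. All 10 symbols were found, each on a single row. Whole-transcriptome sequencing was done on wild type C57BL/6 bone marrow sorted by flow cytometry into pro-B (B220+ IgM- CD43+), pre-B (B220+ IgM- CD43-), immature B (B220+ IgM+ CD43-) and mature B (B220hi IgM+ CD43-) cells. The mice were untreated females of 8 to 10 weeks, and each library pooled the cells of 3 mice. There was 1 library of rRNA-depleted RNA per stage, so that no value below has a replicate check, and stage, pool of mice and library cannot be told apart. No p-value is given.

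Immediate early genes are transcribed within minutes of a stimulus, without new protein synthesis, from promoters that already carry factors such as SRF with its ternary complex partners and CREB, which are switched on by MAP kinase and calcium signals. Their mRNAs are short-lived, and many of their products are transcription factors. Fos and Jun proteins pair through leucine zippers to form AP-1. Egr1 and Nr4a1 are, in B cells, known as early targets of the B-cell receptor, and Nr4a1 reporters are used to read receptor signaling. Dusp1 removes phosphate from MAP kinases, and Zfp36 speeds the decay of mRNAs with AU-rich elements, so both limit the response that induces them. The same genes are also known to be induced by tissue dissociation and cell sorting.

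The mRNA columns summed to 867920 estimated counts for pro-B, 240231 for pre-B, 223495 for immature B and 849350 for mature B. The mRNA table held 23.7% and 23.5% of the counts of the mRNA and lncRNA tables together in the pro-B and mature libraries, and 6.48% in both the pre-B and the immature library, where unannotated transcripts took 91.2% and 90.9%. A limit of 3 counts, which a count of 0 allows, corresponded to 3.46 CPM (counts per 1000000 of the mRNA column total) in pro-B, 12.5 in pre-B, 13.4 in immature B and 3.53 in mature B. Intervals below are exact 95% intervals of counting error only. The sort labels were checked on marker genes. Dntt was at 845 counts in pro-B and at 0 in the other 3 libraries, and Fcer2a, the IgE receptor of mature B cells, was at 358 counts in mature B and at 0 in the others. For pre-B the check was weaker: its 4 markers (Rag1, Rag2, Il2ra and Vpreb3) summed to 1278 CPM in pro-B, 1066 in pre-B, 576 in immature B and 15.2 in mature B. The 4 immature B markers (Ighm, Igkc, Ms4a1 and Cd93) summed to 4337, 7530, 9504 and 5087 CPM in the same order. Most of that sum was Ighm (3775, 7147, 7816 and 3902 CPM), so this check was weak too. Igkc and Ms4a1 were highest in immature B, while Cd93 fell at each step (429, 183, 94.0 and 56.5 CPM).

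Promoter sequences of RefSeq (GRCm38.p6; 250 bases before and 50 bases after the annotated start) were present for 8 of the 10 genes, all but Egr1 and Ier2. Shown are the windows of the 3 genes called higher below in mature B against both pro-B and immature B (Nr4a1, Junb and Fos), of the gene called lower in mature B than in pro-B (Jun), and of the gene with the widest range of CPM among those above 0 in every library (Zfp36). The sequences run 5′ to 3′ on the strand of the gene, and capitals mark the short cyclic AMP response element TGACG, the EGR motif GCGNGGGCG and the CArG box, read on both strands. The windows are chr15:101266596-101266895 (+ strand) for Nr4a1, chr8:84978699-84978998 (- strand) for Junb, chr12:85473640-85473939 (+ strand) for Fos, chr4:95052173-95052472 (- strand) for Jun and chr7:28379179-28379478 (- strand) for Zfp36.
Nr4a1: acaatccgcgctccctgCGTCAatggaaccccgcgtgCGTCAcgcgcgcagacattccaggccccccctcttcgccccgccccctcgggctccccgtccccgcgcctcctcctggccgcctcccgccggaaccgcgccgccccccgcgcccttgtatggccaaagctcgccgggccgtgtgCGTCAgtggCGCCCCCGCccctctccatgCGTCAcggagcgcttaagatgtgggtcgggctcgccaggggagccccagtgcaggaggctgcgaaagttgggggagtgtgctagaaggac
Junb: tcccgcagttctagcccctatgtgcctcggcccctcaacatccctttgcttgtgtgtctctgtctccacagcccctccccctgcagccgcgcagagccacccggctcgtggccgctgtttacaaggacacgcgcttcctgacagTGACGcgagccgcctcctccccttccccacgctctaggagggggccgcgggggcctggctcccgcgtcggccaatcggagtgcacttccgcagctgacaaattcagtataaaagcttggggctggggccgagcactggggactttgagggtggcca
Fos: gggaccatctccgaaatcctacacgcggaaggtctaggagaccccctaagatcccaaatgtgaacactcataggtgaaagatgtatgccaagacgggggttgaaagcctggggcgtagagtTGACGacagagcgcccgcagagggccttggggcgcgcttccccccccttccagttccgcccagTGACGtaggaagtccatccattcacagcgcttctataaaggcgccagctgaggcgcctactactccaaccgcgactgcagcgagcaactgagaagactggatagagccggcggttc
Jun: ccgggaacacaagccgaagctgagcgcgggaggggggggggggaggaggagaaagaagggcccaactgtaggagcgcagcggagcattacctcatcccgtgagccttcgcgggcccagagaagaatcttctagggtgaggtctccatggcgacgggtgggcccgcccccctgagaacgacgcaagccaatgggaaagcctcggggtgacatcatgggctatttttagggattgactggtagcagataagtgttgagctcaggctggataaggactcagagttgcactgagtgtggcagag
Zfp36: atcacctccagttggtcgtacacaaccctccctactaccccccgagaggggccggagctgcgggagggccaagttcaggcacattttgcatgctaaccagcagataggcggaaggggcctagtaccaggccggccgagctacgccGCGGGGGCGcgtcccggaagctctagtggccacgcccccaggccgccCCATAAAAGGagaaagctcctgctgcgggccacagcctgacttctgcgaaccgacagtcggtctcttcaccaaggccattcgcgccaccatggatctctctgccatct
The Nr4a1 window held 4 copies of TGACG and 1 EGR motif, the Fos window 2 copies of TGACG and the Junb window 1 copy. In the Zfp36 window the CArG box, the core of the serum response element, began 58 bases before the start, and an EGR motif began 105 bases before it. None of these 3 motifs was found in the Jun window, which says only that these letters are not in it. Of the 8 windows, 5 held TGACG (Fos, Fosb, Junb, Nr4a1 and Dusp1), against 20.8% of all 32851 promoters of the table, and 3 held the EGR motif (Fosb, Nr4a1 and Zfp36), against 5.55%. The full palindrome TGACGTCA, which contains the short form on both strands, was found in Dusp1 alone, 143 bases before the start, and in 1.79% of all promoters. The CArG box was found in 1.63% of all promoters and among the 8 in Zfp36 alone. The AP-1 motif TGANTCA was in none of the 8 and in 7.81% of all promoters. The GC box GGGCGG, which overlaps the EGR motif in part, was in 6 of the 8 windows (not in Junb or Jund) and in 35.7% of all. The windows were GC-rich, at 58.7% (Fos) to 72.3% (Nr4a1), with Jund lower at 46.7%. These matches describe the letters only and were not tied to the levels below. Sites farther than 250 bases before the start, or with letters other than those given, were not searched. A motif not found here can therefore still have a site in the promoter.

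The mature library had the highest CPM of 7 of the 10 genes. The highest CPM of Jun was in pro-B, of Jund in pre-B and of Egr1 in immature B. Over all 9491 symbols with at least 20 counts, 25.0% were highest in mature B on CPM. On the deposited FPKM (fragments per length of transcript and library total, as scaled by the authors) 9 of the 10 were highest in mature B, all but Jun, beside 40.4% of all symbols. The 10 genes together made up 0.428% of the mRNA counts in pro-B, 0.549% in pre-B, 0.402% in immature B and 0.698% in mature B. Among all symbols ranked by FPKM within a library, which no scaling of a library changes, 5 of the 10 genes stood in the first 1000 in pro-B, in pre-B and in immature B, and 9 in mature B.

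**Figure D1:**
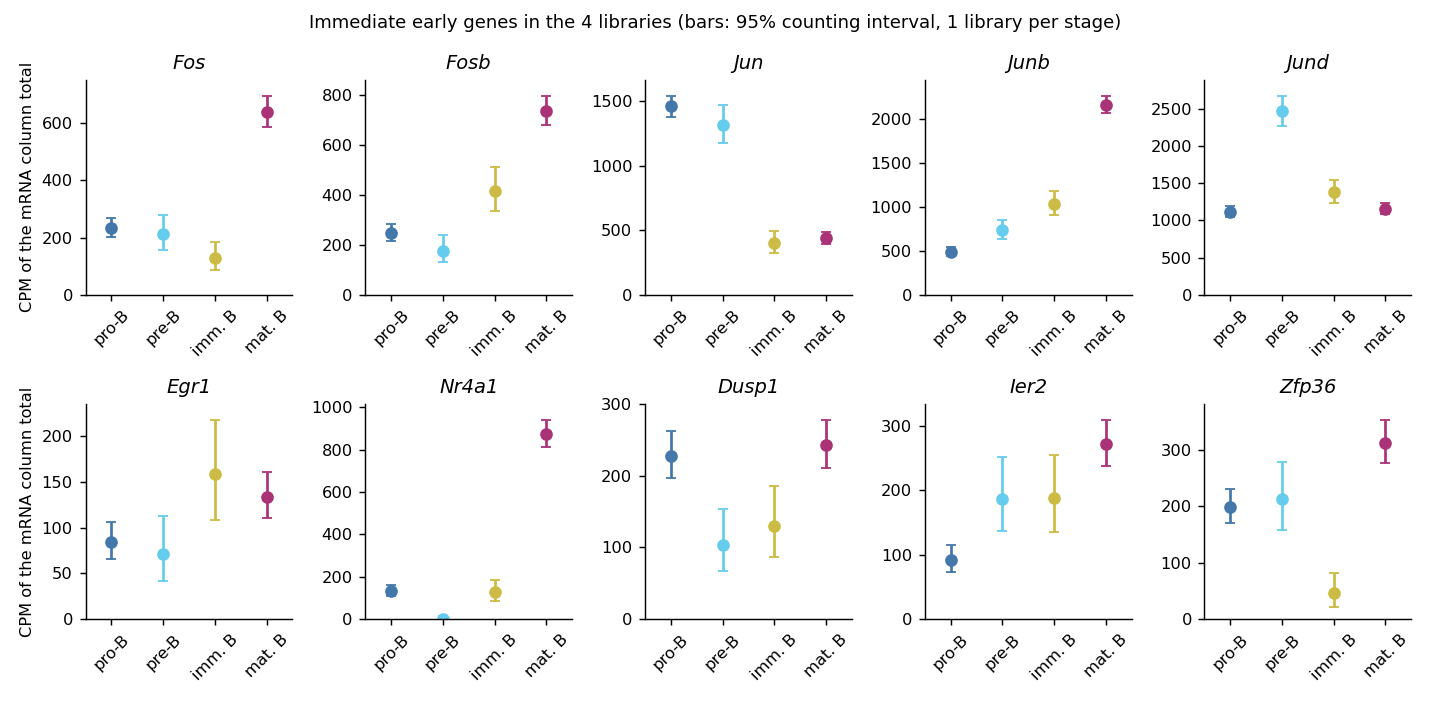
CPM of the mRNA column total for each of the 10 genes in the 4 libraries, with the exact 95% counting interval as bars and each vertical axis starting at 0. Fos, Fosb, Junb, Nr4a1, Dusp1, Ier2 and Zfp36 have their highest point in mature B, Jun in pro-B, Jund in pre-B and Egr1 in immature B; on FPKM, Jund and Egr1 are highest in mature B.

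Mature B and pro-B are the 2 deeper libraries, and their columns sum to a like total. A gene was called where the CPM ratio was at least 2 in size and its counting interval did not hold 1, among symbols with at least 10 counts in both libraries together. Between mature B and pro-B, 5 of the 10 genes were called higher in mature B (Nr4a1, Junb, Fosb, Ier2 and Fos), where 10.9% of 10323 symbols were, and 1 was called lower (Jun), where 20.7% were. The median log2 ratio was 1.06 for the 10 genes and -0.17 for all symbols tested. The ratio of 9 of the 10 genes was above 1. In mature B against immature B, 4 were called higher (Zfp36, Nr4a1, Fos and Junb) beside 21.5% of 8998 symbols, and 0 lower beside 17.6%. There the median log2 ratio was 0.86 for the 10 genes and 0.23 for all symbols. On FPKM all 10 were called higher in that comparison, and so were 6166 of the 8998 symbols.

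The steps between the earlier stages went both ways. In pre-B against pro-B, Jund and Ier2 were called higher, beside 14.4% of 9723 symbols, and Nr4a1 and Dusp1 were called lower, beside 25.8%. The median log2 ratio of the 10 genes was -0.14 on the column total, 0.03 with DESeq2 size factors and 0.04 on a total without the 50 most abundant symbols, so that its sign depended on the scaling. For all symbols the median was -0.45, -0.27 and -0.26 in the same order. The median of the 10 genes was thus above that of all symbols on each of these scalings. In immature B against pre-B, Fosb, Egr1 and Nr4a1 were called higher, beside 12.4% of 7011 symbols, and Jun and Zfp36 lower, beside 12.6%. The median log2 ratios in that step were 0.16 for the 10 genes and -0.01 for all symbols.

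**Figure D2:**
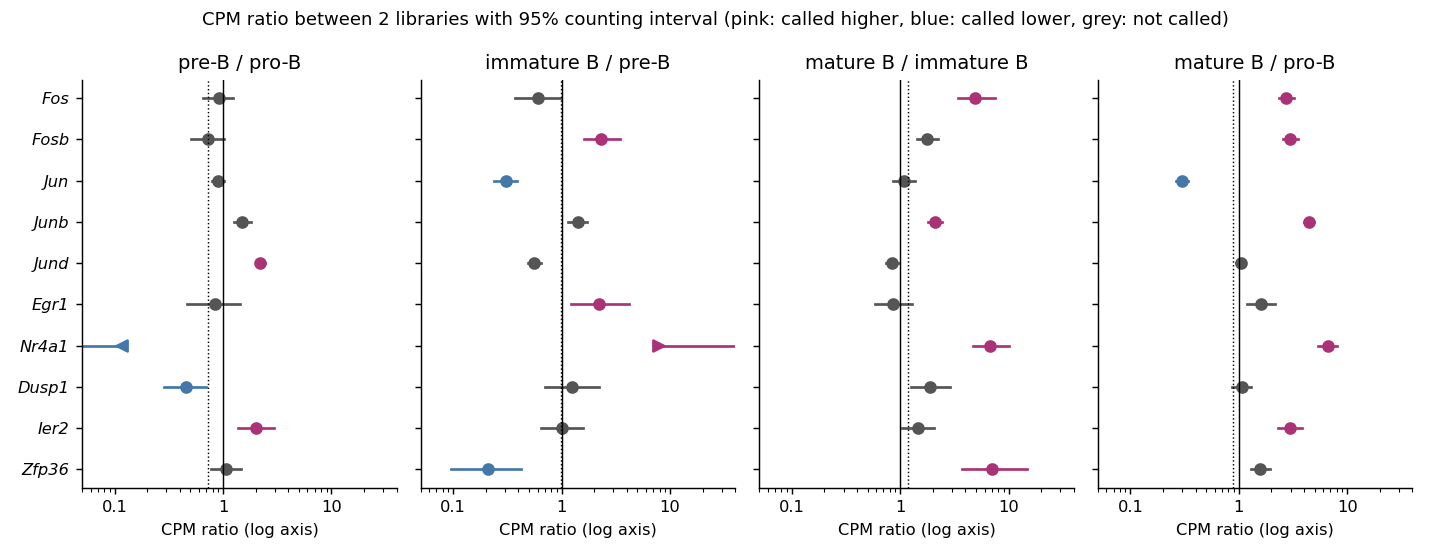
CPM ratio of each gene between 2 libraries on a log axis, with the exact 95% counting interval as a line; pink is called higher, blue called lower and grey not called, the solid line is 1 and the dotted line the median of all symbols tested. Arrowheads mark the interval bound of Nr4a1, listed at 0 in pre-B. Nr4a1, Junb, Fosb, Ier2 and Fos stand above 1 in mature B against pro-B and Jun below it.

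Fos (ENSMUSG00000021250), the founding AP-1 subunit, which cannot form homodimers and pairs with Jun proteins, was at 203 counts in pro-B, 51 in pre-B, 29 in immature B and 544 in mature B. These are 234, 212, 130 and 640 CPM, so that mature B stood apart and the counting intervals of pro-B (203 to 268) and pre-B (158 to 279) overlapped. Mature B was 2.74-fold above pro-B (2.33 to 3.23) and 4.94-fold above immature B (3.40 to 7.44). The ratio of immature B to pre-B was 0.611 (0.374 to 0.983), which was not called. Fos ranked 518 by FPKM in pro-B, 491 in pre-B, 1236 in immature B and 137 in mature B. Its order of the 4 libraries was the same on CPM and FPKM.

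Fosb (ENSMUSG00000003545), a close relative of Fos that also pairs with Jun proteins, was at 215, 43, 93 and 626 counts from pro-B to mature B, or 247, 177, 416 and 737 CPM. Mature B was again highest, at 2.98-fold of pro-B (2.54 to 3.49). Unlike Fos, Fosb was higher in immature B than in pre-B, by 2.32-fold (1.60 to 3.42) on CPM and 2.46-fold on FPKM. Immature B stood above pro-B on CPM but below it on FPKM (8.45 against 13.1). The Fosb to Fos ratio of FPKM within a library, a measure that was chosen after the values were seen, was 0.592 (0.486 to 0.720) in pro-B, 0.509 (0.331 to 0.779) in pre-B, 2.54 (1.66 to 3.99) in immature B and 0.840 (0.748 to 0.944) in mature B. Immature B was thus the library with more Fosb than Fos per length of transcript, and its interval overlapped none of the other 3. The counts behind 1 unit of Fosb FPKM differed between libraries (16.4, 12.4, 11 and 12.4 from pro-B to mature B), so the FPKM columns used unequal transcript lengths for it. In counts the ratio was 1.06, 0.843, 3.21 and 1.15, with immature B again apart.

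Jun (ENSMUSG00000052684), the AP-1 subunit that can pair with itself or with Fos proteins and whose own promoter is a known AP-1 target, was the member that went the other way. It was at 1268 counts in pro-B, 317 in pre-B, 90 in immature B and 372 in mature B, or 1461, 1318, 403 and 438 CPM. Pro-B and pre-B were the high libraries on CPM, with a pre-B to pro-B ratio of 0.903 (0.796 to 1.02), and immature B and mature B the low ones, with a ratio of 1.09 (0.862 to 1.38). Jun was 3.28-fold lower in immature B than in pre-B (2.59 to 4.19) and 3.34-fold lower in mature B than in pro-B (2.97 to 3.75). On FPKM, at 73.2, 17.3, 5.37 and 22.1, mature B was at 0.301 of pro-B, as on CPM, while it stood above pre-B. Its rank by FPKM was 92 in pro-B, 169 in pre-B, 636 in immature B and 492 in mature B.

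Junb (ENSMUSG00000052837), a Jun relative with weaker activation that often opposes Jun, was at 425, 177, 232 and 1842 counts, in the same order. On CPM it stood at 490, 737, 1038 and 2169, each library above the one before with no overlap between the counting intervals, whereas on FPKM (43.2, 17.0, 24.4 and 193) pre-B and immature B were below pro-B. Pre-B was 1.5-fold above pro-B (1.26 to 1.80) on CPM but at 0.394 of it on FPKM, so the direction of this step depended on the scaling. Mature B was 4.43-fold above pro-B (3.98 to 4.93) on CPM and 4.46-fold on FPKM. Against immature B it was 2.09-fold higher (1.82 to 2.41), and 1.87-fold, no longer called, on a total without the 50 most abundant symbols. Junb ranked 37 by FPKM among all symbols of the mature library and 201 in pro-B.

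Jund (ENSMUSG00000071076), the Jun gene that is expressed most constantly and least induced in other cells, was at 969, 594, 309 and 983 counts, or 1116, 2472, 1381 and 1158 CPM, from pro-B to mature B. Pro-B and mature B did not differ beyond counting error, with a ratio of 1.04 (0.948 to 1.13). Pre-B was 2.21-fold above pro-B (2.0 to 2.46) on CPM, but at 0.580 of it on FPKM. Mature B was at 0.837 of immature B (0.736 to 0.954) on CPM and at 3.17-fold of it on FPKM. Its ranks by FPKM stayed within 30 (pre-B) and 67 (immature B and mature B), with 50 in pro-B.

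Ratios between the Jun genes within a library, also chosen after the values were seen, do not depend on how libraries were scaled. The Junb to Jun ratio of FPKM was 0.591 (0.528 to 0.660) in pro-B, 0.986 (0.815 to 1.19) in pre-B, 4.54 (3.55 to 5.86) in immature B and 8.74 (7.81 to 9.79) in mature B. Each library was above the one before, with no overlap of the intervals. The Jund to Jun ratio was 1.46 (1.34 to 1.59) in pro-B, 3.59 (3.12 to 4.12) in pre-B, 6.55 (5.17 to 8.38) in immature B and 5.06 (4.48 to 5.71) in mature B, where the last 2 intervals overlapped. Of the summed FPKM of the 3 Jun genes, Jun held 32.8% in pro-B, 17.9% in pre-B, 8.27% in immature B and 6.76% in mature B. Junb held 19.4%, 17.7%, 37.6% and 59.1%, and Jund 47.9%, 64.4%, 54.2% and 34.2%. Jund was thus the largest of the 3 at the first 3 stages and Junb in mature B.

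**Figure D3:**
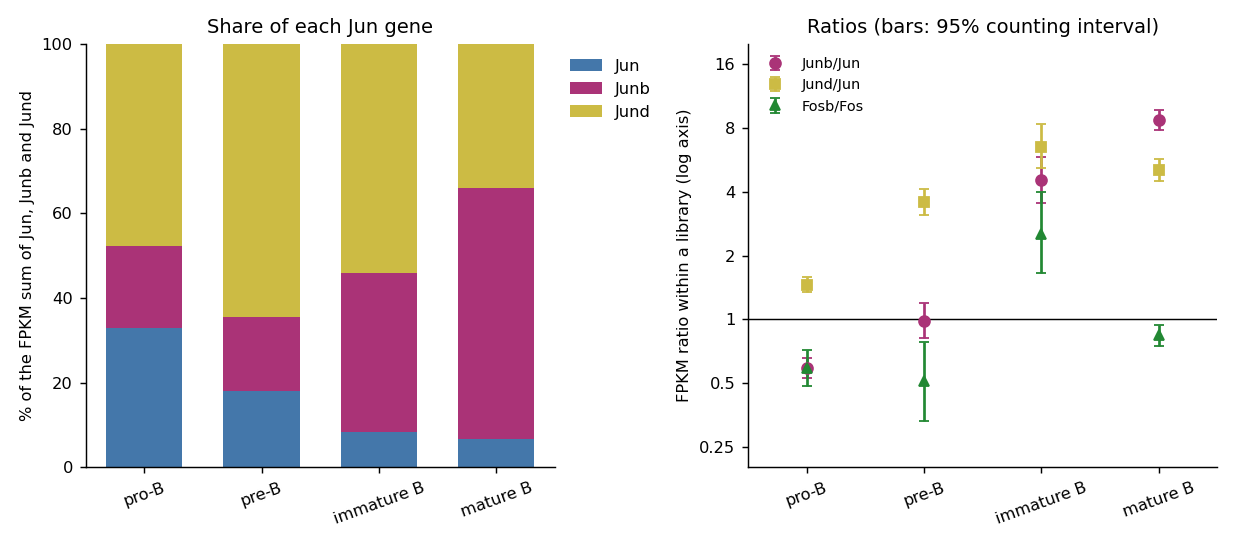
Left, the share of Jun, Junb and Jund in their summed FPKM in each library; right, ratios of FPKM between 2 genes within a library on a log axis, with exact 95% counting intervals as bars. Junb to Jun goes from 0.591 in pro-B to 8.74 in mature B, and Fosb to Fos exceeds 1 in immature B alone.

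Nr4a1 (ENSMUSG00000023034), an orphan nuclear receptor also called Nur77, had the widest range. It was at 115 counts in pro-B, was listed at 0 in pre-B, and was at 29 in immature B and 743 in mature B, or 133, 0, 130 and 875 CPM. Mature B stood apart, at 6.60-fold of pro-B (5.42 to 8.11) and 6.74-fold of immature B (4.65 to 10.1). Pro-B and immature B were at like CPM. Against the limit of 3 counts in pre-B, pro-B was at least 10.6-fold and immature B at least 10.4-fold higher, and the exact intervals, which also hold the error of the other count, begin at 8.49 and 7.92. A listed 0 can be a failed estimate of the transcript quantification: of 1635 symbols with at least 100 counts in both pro-B and mature B, 15 (0.917%) were listed at 0 in pre-B and 14 (0.856%) in immature B, among them the abundant chaperone gene Hsp90ab1 in both. Nr4a1 ranked 1921 by FPKM in pro-B, 2000 in immature B and 142 in mature B.

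Egr1 (ENSMUSG00000038418), a zinc finger factor that is a direct target of SRF, was the least abundant member per length of transcript in pro-B and in mature B, and its range was narrow. Its counts were 73 in pro-B, 17 in pre-B, 35 in immature B and 114 in mature B, or 83.9, 70.8, 159 and 134 CPM. On CPM the 2 earlier libraries were low and the 2 later ones high, and neighbors within each pair did not differ beyond counting error (pre-B to pro-B 0.841, 0.465 to 1.44; mature B to immature B 0.857, 0.582 to 1.29). Egr1 was 2.21-fold higher in immature B than in pre-B (1.21 to 4.21) and 1.60-fold higher in mature B than in pro-B (1.18 to 2.17), which was not called. On FPKM, at 4.41, 0.97, 2.22 and 6.63, mature B was 2.99-fold above immature B, so that the direction of this last step flipped between the scales. The Nr4a1 to Egr1 ratio of FPKM was 1.94 (1.43 to 2.63) in pro-B, 1.0 (0.592 to 1.69) in immature B and 8.72 (7.15 to 10.7) in mature B, so both genes did not move by the same factor.

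Ier2 (ENSMUSG00000053560), a short nuclear protein of the immediate early response, was at 80, 45, 42 and 231 counts from pro-B to mature B, or 92.2, 187, 188 and 272 CPM. Mature B was 2.95-fold above pro-B (2.28 to 3.85) on CPM and 2.97-fold on FPKM. Pre-B was 2.03-fold above pro-B (1.38 to 2.96) on CPM but at 0.532 of it on FPKM. Pre-B and immature B did not differ beyond counting error, with a ratio of 1.0 (0.643 to 1.56).

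The 2 feedback genes differed from each other. Dusp1 (ENSMUSG00000024190), the MAP kinase phosphatase, was at 198 counts in pro-B, 25 in pre-B, 29 in immature B and 206 in mature B, or 228, 104, 130 and 243 CPM. It was high at both ends and low in the middle on both scales, with mature B at 1.06-fold of pro-B (0.870 to 1.3) and pre-B 2.19-fold below pro-B (1.44 to 3.47), a call that was lost with DESeq2 size factors (ratio 0.517) and on a total without the 50 most abundant symbols (0.520). The Dusp1 to Junb ratio of FPKM was 0.423 (0.356 to 0.502) in pro-B, 0.129 (0.0810 to 0.196) in pre-B, 0.114 (0.0744 to 0.168) in immature B and 0.102 (0.0877 to 0.118) in mature B, so that pro-B stood apart from the other 3. Zfp36 (ENSMUSG00000044786), which encodes tristetraprolin, was at 172, 51, 10 and 266 counts, or 198, 213, 45.5 and 313 CPM. Immature B was the low library, 4.74-fold below pre-B (2.38 to 10.5), with mature B 7.0-fold above it (3.75 to 14.8). Only 10 counts lie behind that value. Mature B was 1.58-fold above pro-B (1.3 to 1.93), which was not called.

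By order alone, pro-B and mature B were both above pre-B and immature B for 3 of the 10 genes on CPM (Fos, Nr4a1 and Dusp1), as for 33.1% of all symbols. Pro-B was within counting error of pre-B for Fos and of immature B for Nr4a1. On FPKM all 10 had it, and so did 74.8% of all symbols. The scales differ because the FPKM columns were scaled to totals that hardly differed between the libraries (1.06, 0.967 and 0.972 times pro-B for pre-B, immature B and mature B), while the mRNA column totals were 0.277, 0.258 and 0.979 times pro-B. The files do not tell which scale is closer to RNA per cell, and the calls in this text are those on CPM unless FPKM is named. On FPKM the median log2 ratio of all symbols above 0 in both libraries was -2.09 in pre-B against pro-B and 1.89 in mature B against immature B. On CPM + 1 the median of all symbols tested, those at 0 in 1 library included, was -0.45 and 0.23. These medians are thus over unlike sets of symbols. Set against the median of all symbols on the same scale, 7 of the 9 genes above 0 in both libraries lay above it in pre-B against pro-B on CPM, and 7 on FPKM. The numbers were 7 and 8 of 10 in mature B against immature B and 9 and 9 of 10 in mature B against pro-B, with Jun the exception. In immature B against pre-B they were 5 and 4 of 9. The position of a gene's CPM ratio among all symbols tested does not change with a factor per library; it was also chosen after the values were seen. In mature B against pro-B, the share of symbols with a lower ratio was 97.1% for Nr4a1, 95.9% for Junb, 93.1% for Fosb, 93.0% for Ier2, 92.2% for Fos and 13.5% for Jun. Egr1 (81.3%), Zfp36 (81%), Dusp1 (61.6%) and Jund (60.3%) lay between Fos and Jun. In pre-B against pro-B the share was 84.3% for Jund, 82.4% for Ier2 and 75.1% for Junb. It was 65.1% for Zfp36, 59.2% for Fos, 57.5% for Jun, 55.4% for Egr1 and 49.1% for Fosb. Dusp1 was lower, at 33%, and Nr4a1, listed at 0 in pre-B, was at the bottom.

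**Figure D4:**
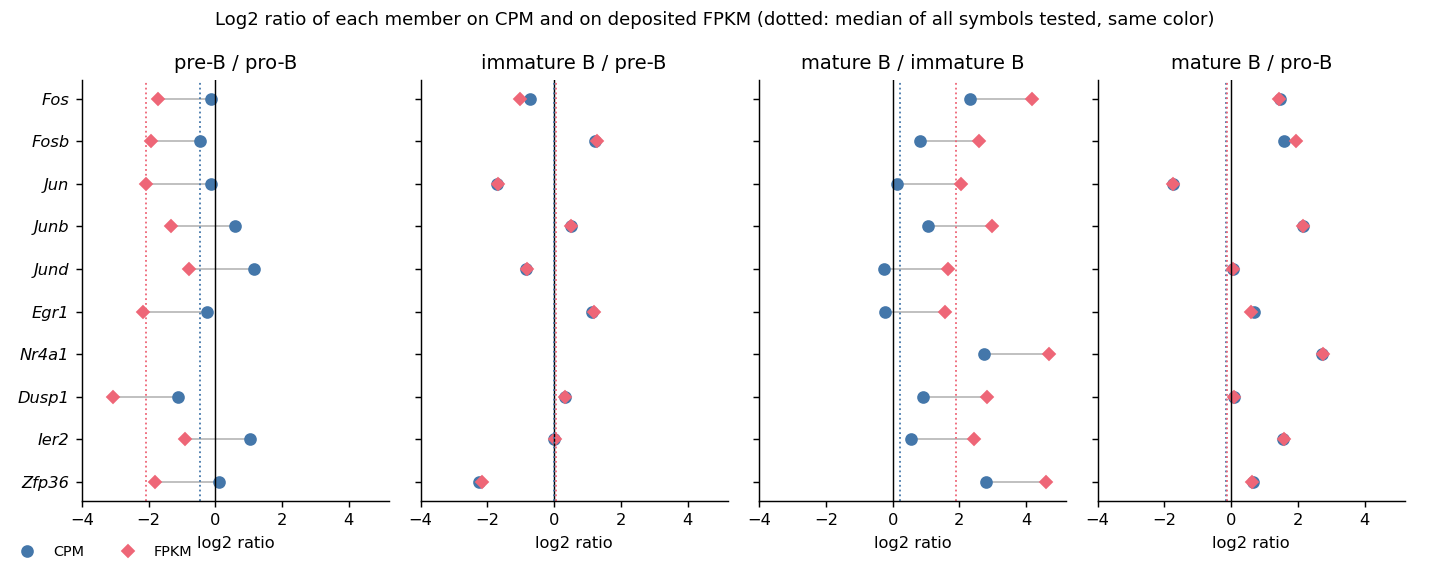
Log2 ratio of each gene on CPM (circles) and on the deposited FPKM (diamonds) in the 4 comparisons, with the median of all symbols tested on each scale as a dotted line of the same color; Nr4a1 is left out where it is listed at 0. The scales part in pre-B against pro-B and in mature B against immature B, where the medians of all symbols part too, from -0.45 to -2.09 and from 0.23 to 1.89.

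In the pathway annotation deposited with the mRNA table, 9 of the 10 genes had an entry, all but Ier2. The MAPK signaling pathway held 5 of them (Fos, Jun, Jund, Nr4a1 and Dusp1) among 300 of 9186 annotated symbols, and osteoclast differentiation held all 5 AP-1 genes among 128. The B-cell receptor pathway held 2 among 201: Fos, which was higher in mature B than in pro-B, and Jun, which was lower. The T-cell receptor and Toll-like receptor pathways held the same 2, among 108 and 102.

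A further list of 40 immediate early genes gave a mixed picture. In mature B against pro-B, 9 of 38 tested were called higher and 8 lower, with a median log2 ratio of 0.03, beside 10.9%, 20.7% and -0.17 for all symbols. Against immature B, 14 of 35 were called higher and 6 lower, with a median of 0.70, beside 21.5%, 17.6% and 0.23 for all symbols. In pre-B against pro-B the counts were 5 higher and 8 lower of 37 (14.4% and 25.8% of all symbols), and in immature B against pre-B 5 and 6 of 32 (12.4% and 12.6%). Myc, the growth factor-induced transcription factor, was at 55.3, 16.7, 58.2 and 224 CPM from pro-B to mature B, and Dusp4, a nuclear MAP kinase phosphatase, at 26.5, 133, 35.8 and 180 CPM. Both were called higher in mature B against pro-B, by 4.04-fold (2.93 to 5.67) and 6.80-fold (4.37 to 11). Dusp5, another MAP kinase phosphatase, was at 255, 612, 251 and 119 CPM and was lower in mature B, at 0.467 of pro-B (0.365 to 0.594), and Nfkbiz, a nuclear regulator of NF-kB, was at 315, 104, 62.6 and 151 CPM, at 0.479 of pro-B (0.385 to 0.593). Maff, a small Maf protein, was at 20.7, 70.8, 116 and 49.4 CPM. Of the 5 most abundant genes of the list, Btg1, an antiproliferative gene, was called higher in mature B against pro-B (2.13-fold, 1.88 to 2.43), and Ier5 (1.90), Zfp36l1 (1.34), Mcl1 (0.887) and Cd69 (0.754) were not called. Egr3, a relative of Egr1, was at 10, 0, 14 and 242 counts; it was singled out after its values were seen.

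A list was also taken of regulators of immediate early genes or of their products. It held SRF and its partners, CREB and ATF factors, ETS factors, MAP kinases, and the EGR co-repressors Nab1 and Nab2. Of 23 tested, 2 were called higher and 3 lower in mature B against pro-B, with a median log2 ratio of 0.01 (10.9%, 20.7% and -0.17 for all symbols). In mature B against immature B, 7 were called higher and 0 lower, with a median of 0.20 (21.5%, 17.6% and 0.23 for all symbols). In pre-B against pro-B, 2 were called higher and 8 lower of 23 (14.4% and 25.8% of all symbols). The median log2 ratio there was -0.42, beside -0.45 for all symbols. In immature B against pre-B, 3 were called higher and 2 lower of 22 (12.4% and 12.6% of all symbols). Ets1, an ETS factor of lymphocytes, was at 735, 346, 407 and 1402 CPM from pro-B to mature B, and Elk4, a ternary complex partner of SRF, at 846, 258, 246 and 518 CPM. Map2k1, which encodes the kinase MEK1, was at 58.8, 8.33, 40.3 and 155 CPM, where the pre-B value rests on 2 counts. Elk3 and Ets2, ETS factors too, were not called in mature B against pro-B, at ratios of 1.15 and 1.05.

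By the fixed measure of likeness, the distance over the 4 libraries between log2(CPM + 1) centered on its mean and the median pattern of the 10 genes, the nearest of 2669 symbols with at least 200 counts were Tiparp (0.210), Dnm2 (0.220), Uba6 (0.220), Birc3 (0.231) and Pde7a (0.253). Tiparp was at 129, 129, 143 and 276 CPM from pro-B to mature B. The 10 genes themselves lay farther from their own median, from 0.777 (Fosb) to 6.61 (Nr4a1), since the median joins unlike patterns.

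Values that bear on the handling of the cells and on other cell types are given beside these results, and their part in them was not tested. The 16 stress and heat shock genes summed to 3416 CPM in pro-B, 2051 in pre-B, 1905 in immature B and 2889 in mature B, a sum that was lower in mature B than in pro-B on CPM. Of 13 tested, 0 were called higher and 1 lower in mature B against pro-B (10.9% and 20.7% of all symbols), with 4 ratios above 1 and 9 below, and 3 of 12 were called higher and 0 lower in mature B against immature B (21.5% and 17.6%). In pre-B against pro-B, 2 were called higher and 5 lower of 13 (14.4% and 25.8% of all symbols). The median log2 ratio there was -0.96, beside -0.45 for all symbols. In immature B against pre-B, 1 was called higher and 2 lower of 11 (12.4% and 12.6% of all symbols). The 5 most abundant went both ways in mature B against pro-B: Hsp90ab1 was at a ratio of 1.77 (1.46 to 2.13), Hspa5 at 0.932 (0.833 to 1.04), Hsp90aa1 at 0.903 (0.788 to 1.03), Dnaja1 at 0.719 (0.569 to 0.906) and Hspa8 at 0.677 (0.614 to 0.746), and none was called. Hsp90ab1, at 180 counts in pro-B and 311 in mature B, was listed at 0 in pre-B and immature B, which can be a failed estimate. It entered those 2 sums as 0. It was also among the genes called lower in pre-B against pro-B and higher in mature B against immature B. The 8 myeloid markers summed to 1076, 1128, 931 and 845 CPM from pro-B to mature B, with Csf1r at 0 in all 4 libraries. Lyz2 (321 and 246 CPM), S100a8 (271 and 150), S100a9, Itgam and Fcgr3 were lower in mature B than in pro-B. Mpo (89.9 and 171 CPM) and Elane (44.9 and 65.9) were higher. The 8 T and NK cell markers summed to 207 CPM in pro-B and 8.33, 0 and 5.89 CPM in the others. In pro-B, Cd3e and Cd3d were at 0, while Gzma was at 106 counts, Nkg7 at 38, Ccl5 at 17 and Klrd1 at 15. Erythroid markers (6 genes) went from 415 CPM in pro-B to 224 in mature B, plasma cell markers (4 genes) from 316 to 111, and plasmacytoid dendritic cell markers (4 genes) from 1000 to 235, so each of these sums was lower in mature B than in pro-B. In bulk libraries, fewer cells with a transcript and less of it per cell cannot be told apart.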

How the data were processed

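Libraries of rRNA-depleted, strand-specific RNA were made by the authors from the sorted cells, reads were trimmed with fastp 0.18.0, freed of rRNA with Bowtie2 2.2.8, mapped with HISAT2 2.1.0 and assembled with StringTie 1.3.4. The labels list Bowtie 0.12.2 and mm9, while the build behind the gene tables is not given in the sources used here. The deposited mRNA table holds estimated counts and FPKM per gene. The deposited lncRNA table was used for its estimated counts and the circRNA table for its counts of junction reads, and the miRNA table was not used here. Counts were summed per symbol, divided by the column total (CPM) and, for intervals, rounded to whole numbers. Ratios between 2 libraries carry exact 95% Clopper-Pearson intervals of the split of the 2 counts, and single counts exact Poisson intervals (scipy 1.17.1). A call needed a ratio of at least 2 in size and an interval that did not hold 1, among symbols with at least 10 counts in the pair. Reads are not independent molecules, so that intervals cover counting error only. Log2 medians used CPM + 1. The calls were tried on simulated Poisson counts, which hold counting error only. There, 1.41% (mature B against pro-B) to 2.17% (immature B against pre-B) of the unchanged symbols tested were called. Differences between mice, sorts and libraries were not simulated, so this does not show how the calls hold against them. Alternatives were TMM factors and exact tests at preset dispersions (edgeR 4.0.16), DESeq2 1.42.0 size factors, the FPKM scale, other filters and a fold of 4. All 10 members are named; of each other list the 5 most abundant genes and those called in all 3 of pre-B against pro-B, mature B against immature B and mature B against pro-B are named, except 1 gene that is not reported here. The members and lists were chosen with earlier results of these data known. Promoters and motifs were read from RefSeq sequence tables (GRCm38.p6) matched by symbol.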

Additional observations from a re-analysis of the deposited data

Results flagged for a closer look

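Reads of Fos were also counted outside the mRNA table. In the lncRNA table, transcripts of Fos annotated as noncoding held 16.90 estimated counts in pro-B, 10.64 in pre-B, 4.07 in immature B and 49.45 in mature B, each above the 3 counts that a count of 0 allows. These were 7.69%, 17.3%, 12.3% and 8.33% of all Fos counts in the respective library. Mature B was the highest on counts, as it was for the Fos mRNA. How reads were split between these transcripts and the Fos mRNA was not tested.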

How the results depend on the processing

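With 1 library per stage no value could be repeated without a replicate. No paired analysis was possible because each stage has 1 library. TMM factors, no filter on counts, and edgeR exact tests at dispersions of 0.0001 and 0.01 left the call and direction of all 40 member ratios as they were. On the deposited FPKM, 25 of 40 were as before, 9 were newly called without a change of direction and 6 turned: in pre-B against pro-B, Junb (0.394), Jund (0.580), Ier2 (0.532) and Zfp36 (0.285) fell below 1, and in mature B against immature B, Jund (3.17) and Egr1 (2.99) rose above it. Of those that turned, Junb and Zfp36 were newly called lower, and Jund and Egr1 in mature B against immature B newly called higher. On FPKM 0 members were called higher and 8 lower in pre-B against pro-B (2 and 2 on CPM). The median log2(FPKM + 1) difference was -1.57 beside -1.24 for all symbols. The added 1 shrinks the ratios of low symbols. Without it the median of symbols above 0 in both libraries was -2.09, and 7 of 9 members lay above it. In mature B against immature B, 10 were called higher (4 on CPM), with a median log2(FPKM + 1) difference of 2.45 beside 1.14. These shifts follow from how the scale is built, on totals that hardly differ between libraries. DESeq2 size factors gave 1 member lower in pre-B against pro-B (Nr4a1, without Dusp1), a median there of 0.03 (-0.14 on the column total) and a median of 1.24 in mature B against pro-B (1.06), where TMM gave 1.21. With DESeq2 factors, 1661 of all symbols were called higher and 2115 lower in pre-B against pro-B, with a median of -0.27. In mature B against pro-B the median of all symbols was -0.00 with DESeq2 factors and -0.03 with TMM. A total without the 50 most abundant symbols gave 1 lower, again without Dusp1, and a median of 0.04 in pre-B against pro-B, and 3 higher, without Junb, and a median of 0.71 in mature B against immature B (4 and 0.86). On that total, 1672 of all symbols were higher and 2084 lower in pre-B against pro-B, with a median of -0.26. In mature B against immature B, 1630 were higher and 1790 lower, with a median of 0.08. A fold of 4 left 0 higher and 1 lower in pre-B against pro-B, 1 and 1 in immature B against pre-B, and 2 and 0 in mature B against pro-B. An edgeR exact test at a dispersion of 0.16 left 0 higher and 1 lower in pre-B against pro-B, 1 higher in immature B against pre-B and 2 higher in mature B against pro-B. Called under every alternative were Nr4a1 in pre-B against pro-B, Zfp36 in immature B against pre-B, Fos, Nr4a1 and Zfp36 in mature B against immature B, and Junb and Nr4a1 in mature B against pro-B. The first of these rests on a listed 0, which no scaling changes. Whether that 0 is a failed estimate could not be seen from any of the alternatives. Over all symbols, the share of calls that were higher was 35.8% in pre-B against pro-B on the column total and 2.16% on FPKM, 44.0% with DESeq2 factors and 25.4% with at least 50 counts, and in mature B against immature B 55.1% and 97.1% on FPKM. Symbols called higher and lower numbered 1398 and 2511 in pre-B against pro-B (159 and 7202 on FPKM, 672 and 1419 at a fold of 4, 585 and 1302 at a dispersion of 0.16, 574 and 1687 with at least 50 counts), 871 and 880 in immature B against pre-B (449 and 405, 269 and 302, and 200 and 213 under the last 3), 1939 and 1583 in mature B against immature B (6166 and 187 on FPKM, then 1029 and 794, 945 and 665, and 1399 and 603) and 1124 and 2142 in mature B against pro-B (478 and 1125, 431 and 1008, and 620 and 988). Depth limits the values of pre-B and immature B most, where Zfp36 rests on 10 counts and Egr1 on 17.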

Other observations

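Among the 1005 circular RNAs, 2 came from members. A circRNA of Fosb from a single exon had 3 junction reads in mature B (0.619 to 8.77, exact 95% Poisson interval), and a circRNA of Nr4a1 had 2 (0.242 to 7.22). Both were at 0 in the other 3 libraries, and neither exceeded the 3 reads that a count of 0 allows. Junos, annotated on the strand opposite to Jun, had 2 estimated counts in pro-B, 2 in mature B and 0 in pre-B and immature B, beside 1268 and 372 counts of Jun in pro-B and mature B. The relatives Nr4a2 and Nr4a3 were low, at 22, 0, 0 and 13 counts and 44, 0, 0 and 47 counts from pro-B to mature B, with both listed at 0 in pre-B and in immature B, where Nr4a1 was at 0 and 29 counts. These genes were looked at after their values were seen.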
